A study of Rattus norvegicus with 12 samples.

Results

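The genes followed here encode histones, and they were compared in 2 classes: 6 genes of the replication-dependent Hist1 cluster (Hist1h2af, Hist1h2ao, Hist1h2an, Hist1h4m, Hist1h4b and Hist1h2bg) and 4 genes named as histone variants (H2afx, H2afz, H3f3b and H1f0). They were chosen by name, with earlier results of these data known, so their log2 ratios are given as a description with no test. Of the 10 genes, 8 were found by the gene name in the files. The other 2, Hist1h2af and Hist1h2bg, were found by the RefSeq accession of a probe that the files name otherwise. The files name the Hist1h2bg probe Hist1h2bl. They had 15 probes among the 41012 on the array, which stand for 35526 genes or unnamed transcripts, and all 15 passed the filter on dim probes.

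The cells were F11, a hybrid line of rat dorsal root ganglion neurons and mouse neuroblastoma that serves as a culture model of sensory neurons. After 3 h in low serum (0.5% FCS) they received 10 µM forskolin, a diterpene that switches on adenylyl cyclase, the enzyme that makes cyclic AMP. Cells were taken at 2, 4, 24 or 48 h, 3 samples a time. The common reference was RNA of unstimulated F11 cells from the end of the low-serum step, and it counts as 1 control sample. Each of 12 rat arrays set a forskolin sample, labelled with Cy3 (green), against that reference, labelled with Cy5 (red), with no dye swap. A log2 ratio below 0 means less signal in forskolin-treated cells than in the reference, and a ratio of -1 is 2-fold less. Cells kept as long without forskolin were not analysed here, so forskolin, time in culture and time in low serum cannot be told apart. A fixed dye effect of a probe stays in every ratio to the reference and cancels between times. Nothing in the labels says that the 3 samples of a time came from separate cultures, so the spread between them may be technical. The labels name an Agilent labelling kit but not the primer, so how well mRNAs without a poly(A) tail were labelled is unknown; this bears on every ratio of a replication-dependent histone and on its comparison with polyadenylated variants. Mouse transcripts in these hybrid cells may bind the rat probes to an unknown extent.

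Nucleosomes wrap DNA around the core histones H2A, H2B, H3 and H4, and the linker histone H1 binds where the DNA enters and leaves. Most of this protein comes from replication-dependent genes, which lie in clusters of many near-identical intronless copies, are transcribed mainly in S phase, and give mRNAs that end in a stem-loop in place of a poly(A) tail. Variant genes are single genes with polyadenylated mRNAs that are made through the cell cycle or in cells that no longer divide: H3f3b encodes H3.3, which marks transcribed chromatin, H2afz encodes H2A.Z, found around transcription start sites, and H1f0 encodes H1.0, the linker histone known to accumulate in differentiated cells.

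The letters of the probes decide which copies can be told apart, so those of the members the results turn on are shown first. They are read from the scanner files, 5′ to 3′ on the sense strand, with coordinates of build rn3 as the files give them. All 8 probes of the Hist1 members lie on chromosome 17, between 48516845 and 50355996. The 3 H2A genes are measured by 60 bases over the same coding stretch at the end of the gene, and capitals mark bases that differ from the Hist1h2ao probe where the probes overlap.
Hist1h2ao, chr17:50345199-50345258, minus strand: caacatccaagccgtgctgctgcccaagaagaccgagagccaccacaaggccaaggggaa
Hist1h2af, chr17:48516845-48516904, plus strand: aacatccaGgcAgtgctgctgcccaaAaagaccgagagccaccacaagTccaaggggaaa
Hist1h2an, chr17:50355937-50355996, plus strand: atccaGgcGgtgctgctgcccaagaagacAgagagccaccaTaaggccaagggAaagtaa
The Hist1h2af probe differs from the Hist1h2ao probe at 4 of the 59 bases they share, and the Hist1h2an probe at 5 of 56. In all, 8 probes cover this stretch, with 86.4% to 94.6% of bases equal to the Hist1h2ao probe, and 5 of them belong to other H2A genes. The signal of 1 of these probes may therefore come from several H2A copies, and the 3 H2A members are not 3 separate measurements of 3 genes.

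The main probes of the 2 H4 genes meet at their ends: the last 25 bases of the Hist1h4m probe lie over the first 25 of the Hist1h4b probe, and capitals mark the 6 that differ there.
Hist1h4m, chr17:50335464-50335523, plus strand: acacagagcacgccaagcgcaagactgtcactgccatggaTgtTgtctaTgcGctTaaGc
Hist1h4b, chr17:50116611-50116670, plus strand: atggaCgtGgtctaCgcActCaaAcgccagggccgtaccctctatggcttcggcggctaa
The H2B gene Hist1h2bg has 1 probe, printed because its letters, like those above, lie in coding sequence shared by the family; 50 of 56 bases equal those of the H2bc18 probe.
Hist1h2bg, chr17:48774872-48774931, plus strand: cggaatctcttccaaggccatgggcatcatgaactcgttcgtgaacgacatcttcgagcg

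The probe named H2afx does not measure a histone by its accession. The files describe its transcript as dolichyl-phosphate N-acetylglucosaminephosphotransferase 1, and RefSeq names that accession Dpagt1, an enzyme of N-glycosylation. It lies at chr8:47319578-47319637, and another probe, at chr8:47322277-47322336, carries the RefSeq symbol H2ax. The probe named H2afx is therefore given on its own, and the variant class below is H2afz, H3f3b and H1f0 unless stated.

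After 24 h of forskolin every member of the Hist1 cluster gave less signal than the reference on all 3 arrays, and the order by kind of histone was H2A, then H4, then H2B. The H2A genes stood at -2.57 ± 0.16 (Hist1h2af), -2.52 ± 0.15 (Hist1h2ao) and -2.31 ± 0.14 (Hist1h2an; SD, n = 3 throughout), the H4 genes at -1.46 ± 0.20 (Hist1h4m) and -1.42 ± 0.21 (Hist1h4b), and Hist1h2bg at -1.01 ± 0.07. Of the variants, H2afz stood at -1.05 ± 0.04, H1f0 at -1.04 ± 0.09 and H3f3b at -0.33 ± 0.09. These ratios are those that chose the genes.

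Calls across all genes are given as background, and nothing is read from the members' counts, since the members were chosen on these contrasts. A call is an adjusted p under 0.05 in limma over all genes. At 2 h 3 of the 6 Hist1 members and 1 of the 3 variants were called lower and 0 higher, where 28.6% of all genes were called, 18.5% lower and 10.1% higher. At 4 h 2 Hist1 members and 2 variants were called lower and 1 of each higher, against 50% of all genes called, 30.4% lower and 19.6% higher. All 6 Hist1 members and all 3 variants were called lower at 24 h, where 53.8% of all genes were called, 29.5% lower and 24.4% higher, and again at 48 h, where 57.7% were called, 30.5% lower and 27.1% higher.

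From 2 to 4 h 1 Hist1 member was called higher and 1 variant lower, against 15.9% of all genes called, 10.2% lower and 5.64% higher. From 4 to 24 h all 6 Hist1 members and 2 variants were called lower, against 39.1% called, 17.9% lower and 21.2% higher. From 24 to 48 h 2 Hist1 members were called higher and 1 variant lower, against 15.0% called, 6.90% lower and 8.14% higher.

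**Figure D1:**
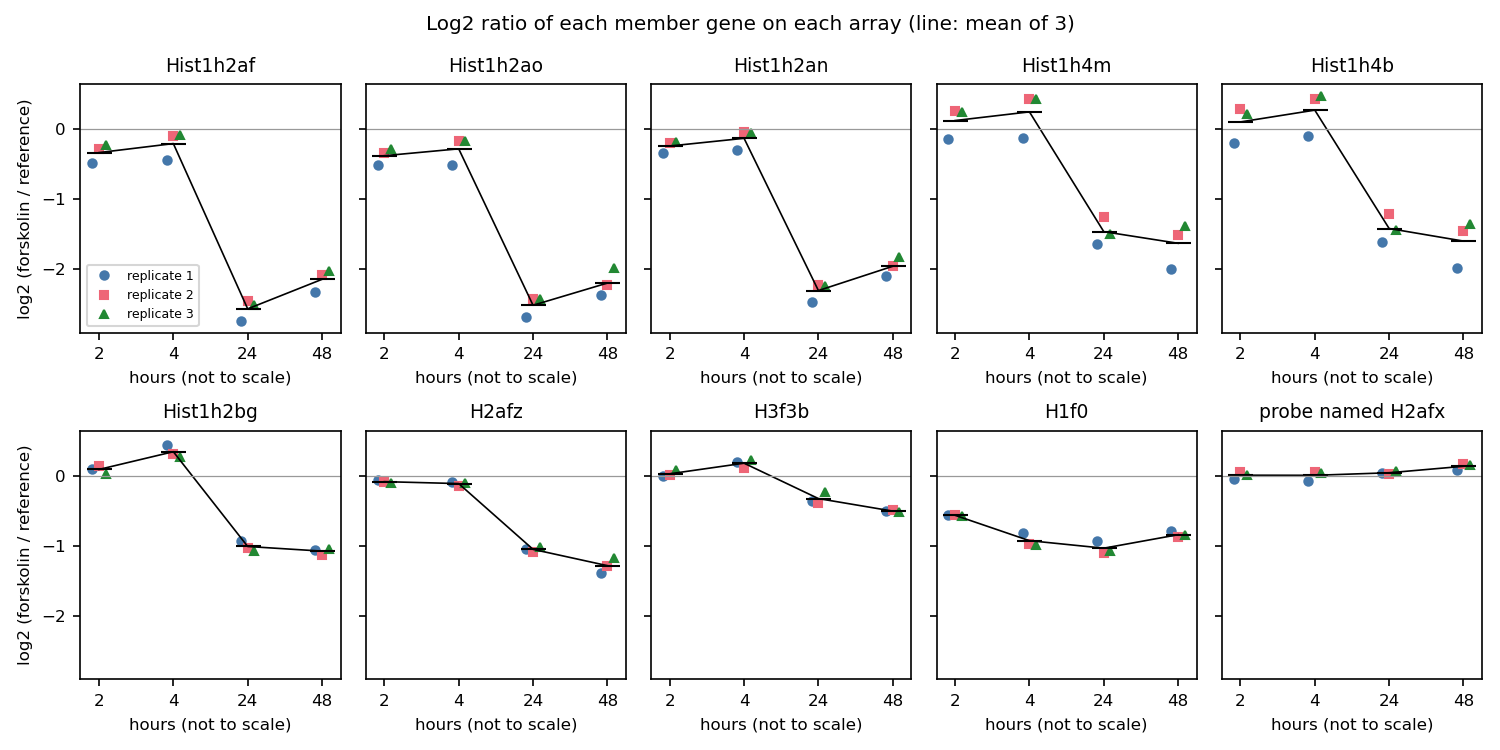
Log2 ratio of forskolin over reference (vertical axis) at 2, 4, 24 and 48 h of forskolin (horizontal axis, not to scale) for each member gene; points are the 3 arrays of a time, marked by replicate, and the line joins their means. The H2A genes drop to between -2.75 and -2.22 at 24 h, the H4 genes to between -1.64 and -1.21, and the probe named H2afx stays between -0.07 and 0.17.

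At 2 and 4 h the H2A genes lay a little below the reference, with means between -0.38 and -0.13, and the arrays of replicate 1 lay lowest. Hist1h2af gave -0.49, -0.29 and -0.23 on the 3 arrays of 2 h and -0.44, -0.09 and -0.09 on those of 4 h. At 24 h it gave -2.75, -2.45 and -2.51, so that the 24 h arrays lay far below every early array. At 48 h it gave -2.33, -2.09 and -2.03, all above the 3 values of 24 h. Hist1h2af thus stood 5.93-fold below the reference at 24 h and 4.43-fold below it at 48 h, a difference of 0.42 between the means. The early values of the H2A members depended on the normalization. When arrays were centred on their medians alone, the 3 genes stood well below the median of all genes. Relative to it they gave -1.41 to -1.20 at 2 h and -1.19 to -0.995 at 4 h.

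Hist1h2ao followed the same course, with -0.51, -0.35 and -0.28 at 2 h and -0.51, -0.16 and -0.17 at 4 h. It gave -2.69, -2.43 and -2.43 at 24 h and -2.38, -2.23 and -1.99 at 48 h, again with no overlap between these times. The main Hist1h2an probe gave -0.34, -0.20 and -0.18 at 2 h and -0.30, -0.04 and -0.05 at 4 h. Its late values were -2.47, -2.22 and -2.23 at 24 h and -2.09, -1.96 and -1.83 at 48 h. A second Hist1h2an probe, at chr17:50355711-50355770 and upstream of the shared stretch, had means of -0.14 ± 0.06, 0.11 ± 0.12, -2.14 ± 0.09 and -1.85 ± 0.02 at the 4 times. The drop and the partial return were therefore also seen with letters outside the stretch that the H2A probes share.

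The 2 H4 genes, whose product pairs with H3 in the core of the nucleosome, dropped by less and did not return. Hist1h4m gave -0.14, 0.26 and 0.25 at 2 h and -0.12, 0.43 and 0.44 at 4 h, replicate 1 lying below 0 and the others above it at both times. It gave -1.64, -1.25 and -1.50 at 24 h and -1.99, -1.51 and -1.39 at 48 h, and these times overlapped. Hist1h4b gave -0.19, 0.29 and 0.22 at 2 h and -0.10, 0.44 and 0.48 at 4 h, followed by -1.62, -1.21 and -1.44 at 24 h and -1.99, -1.46 and -1.35 at 48 h. From 24 to 48 h the means moved by -0.17 and -0.18, less than the SD at 48 h of 0.32 and 0.34. The early position of both genes depended on the normalization, since with median centring their means lay below 0 at 2 and 4 h. Relative to the median of all genes, Hist1h4m then gave -0.52 at 2 h and -0.37 at 4 h, and Hist1h4b -0.52 and -0.33.

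Hist1h2bg, which encodes an H2B, was above the reference on every early array, with 0.10, 0.15 and 0.02 at 2 h and 0.44, 0.32 and 0.27 at 4 h. It then gave -0.93, -1.03 and -1.08 at 24 h and -1.06, -1.13 and -1.05 at 48 h, 2.02-fold and 2.11-fold below the reference. The values above 0 at 4 h depended on the normalization: when arrays were centred on their medians alone, Hist1h2bg averaged -0.76 at 4 h, and -0.17 relative to the median of all genes. That centring put the median of all genes at -0.59 at 4 h and -0.45 at 24 h, against -0.03 and -0.02 with loess. Under it the difference between 24 and 4 h kept its direction in every Hist1 member, from -2.27 in Hist1h2af to -1.15 in Hist1h2bg.

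Among the variants, H2afz moved most like the Hist1 genes. It gave -0.06, -0.09 and -0.11 at 2 h and -0.09, -0.15 and -0.10 at 4 h, close to the reference. At 24 h it gave -1.05, -1.09 and -1.02, and at 48 h -1.39, -1.29 and -1.17, so that it was 2.08-fold and then 2.44-fold below the reference. The 48 h arrays all lay below the 24 h arrays, where those of the 3 H2A members all lay above them. With median centring H2afz stood at -1.05 at 2 h and -0.97 at 4 h relative to the median of all genes. The H2afz probe holds AATAAA, the hexamer that signals polyadenylation, which 4.26% of all probes hold on the sense strand, and of the 66 kept probes named or described as histones only those of H2afz and Cenpa do.

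H3f3b changed least among the histone members. Its main probe, at chr10:106145615-106145674, gave -0.01, 0.01 and 0.08 at 2 h and 0.20, 0.11 and 0.23 at 4 h, then -0.36, -0.39 and -0.23 at 24 h and -0.50, -0.50 and -0.52 at 48 h. With median centring the 4 h mean turned from 0.18 to -1.25, or -0.66 relative to the median of all genes, so its early direction is not settled. The files place 2 further probes named H3f3b on chromosome 13, away from the gene on chromosome 10. RefSeq (GRCr8) has H3f3a, the other gene for H3.3, on chromosome 13, so these probes may measure that gene; positions were not compared between builds. Their means were -0.02, 0.00, -0.47 and -0.32 for the first and 0.20, 0.31, -0.25 and -0.11 for the other at 2, 4, 24 and 48 h. The main probe was lower at 48 h than at 24 h and these 2 were higher, so the probes under the name H3f3b differ in direction over the last step.

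The 2 probes of H1f0 disagreed at the early times and met at 24 h. The brighter, at chr7:117037324-117037383, was already low at 2 h with -0.56, -0.56 and -0.58, gave -0.82, -0.98 and -0.99 at 4 h and -0.93, -1.10 and -1.08 at 24 h, and stood at -0.80, -0.88 and -0.85 at 48 h. The other was at the reference early, with -0.08, 0.03 and 0.05 at 2 h and 0.11, 0.06 and 0.07 at 4 h, and gave -1.03, -1.04 and -1.11 at 24 h and -1.07, -1.18 and -1.14 at 48 h. The letters of this second probe are shown because the timing of H1f0 depends on which probe is read, and it lies upstream of the first.
H1f0, chr7:117035998-117036057, plus strand: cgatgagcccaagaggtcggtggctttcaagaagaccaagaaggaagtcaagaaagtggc
Both probes place H1f0, a variant known from differentiated cells, about 2-fold below the reference at 24 h, by 2.05 and 2.08.

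**Figure D2:**
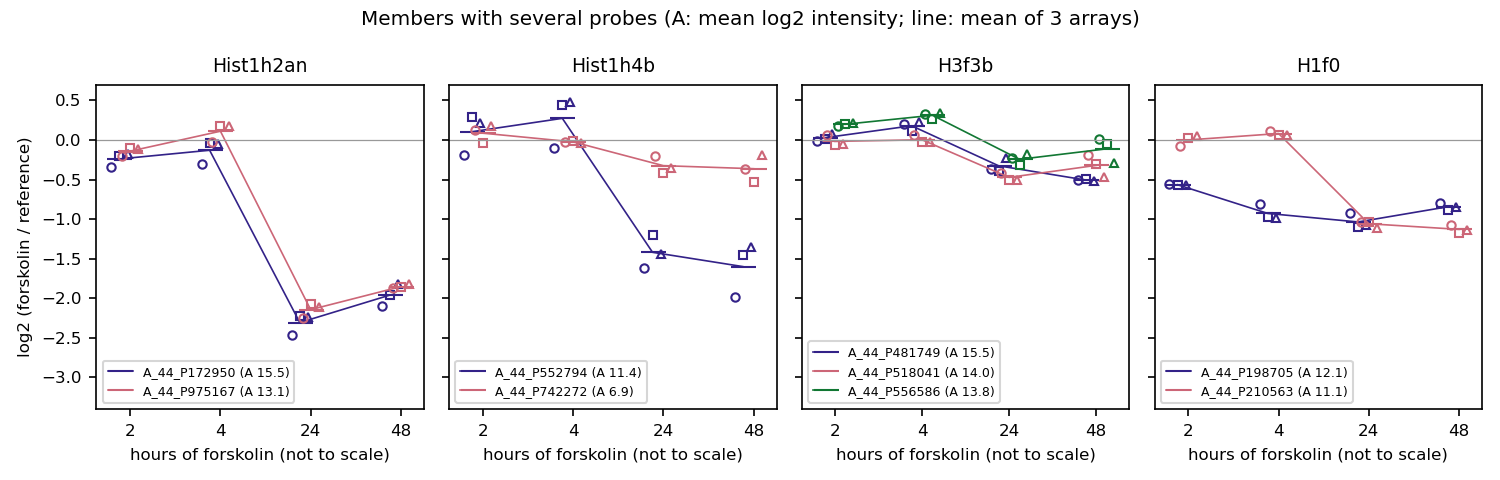
Log2 ratio of forskolin over reference (vertical axis) at 4 times (horizontal axis, not to scale) for the 4 member genes with several probes; each colour is 1 probe, open symbols are its 3 arrays, the line joins their means, and A is the mean log2 intensity. The H1f0 probes stand at -0.93 and 0.08 at 4 h and at -1.04 and -1.06 at 24 h.

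The probe named H2afx gave -0.04, 0.06 and 0.01 at 2 h and -0.07, 0.05 and 0.04 at 4 h, followed by 0.04, 0.03 and 0.06 at 24 h and 0.08, 0.17 and 0.15 at 48 h. The RefSeq-named H2ax probe, dim with a mean log2 intensity of 6.93, gave 0.31, 0.01 and 0.13 at 2 h and 0.79, 0.33 and 0.44 at 4 h, followed by -0.08, -0.0049 and 0.02 at 24 h and 0.10, -0.11 and -0.11 at 48 h. H2A.X, the variant phosphorylated at DNA breaks, thus had its highest ratios at 4 h, with a mean of 0.52. By 24 h it was back near the reference, with a mean of -0.02, and not clearly below it at this intensity.

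Set against each other on the same array, where a constant shift of the array cancels, the mean of the 6 Hist1 genes minus the mean of H2afz, H3f3b and H1f0 changed sign between 4 and 24 h. The difference was -0.05, 0.19 and 0.17 on the 3 arrays of 2 h and 0.06, 0.49 and 0.43 on those of 4 h. It was -1.23, -0.90 and -1.09 at 24 h and -1.07, -0.84 and -0.76 at 48 h, below 0 on all 6 late arrays. The means were 0.10 ± 0.13, 0.33 ± 0.23, -1.08 ± 0.17 and -0.89 ± 0.16. At 24 h the Hist1 mean was thus lower than the variant mean by a factor of 2.11. This factor depends on the kind of Hist1 gene, and 3 of the 6 are the H2A members with overlapping probes. The 24 h means were -2.46 for H2A, -1.44 for H4 and -1.01 for H2B, against -0.81 for the variants. Hist1h2bg (-1.01) was no lower than H2afz (-1.05) or H1f0 (-1.04).

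The size of the difference between Hist1 genes and variants also depends on which variant is taken. As a difference of log2 ratios, the Hist1 mean at 24 h stood at -0.83 ± 0.15 against H2afz, -0.84 ± 0.22 against H1f0 and -1.55 ± 0.16 against H3f3b. At 48 h these differences were -0.48 ± 0.08, -0.93 ± 0.22 and -1.26 ± 0.19, closer to 0 for H2afz and H3f3b. With the probe named H2afx among the variants, the difference was -1.29 ± 0.16 at 24 h and -1.14 ± 0.16 at 48 h. With the other H1f0 probe in place of the brighter one, the early means were -0.087 ± 0.11 at 2 h and -0.0077 ± 0.21 at 4 h. The rise of the difference above 0 at 4 h therefore came with the H1f0 probe that was low early.

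**Figure D3:**
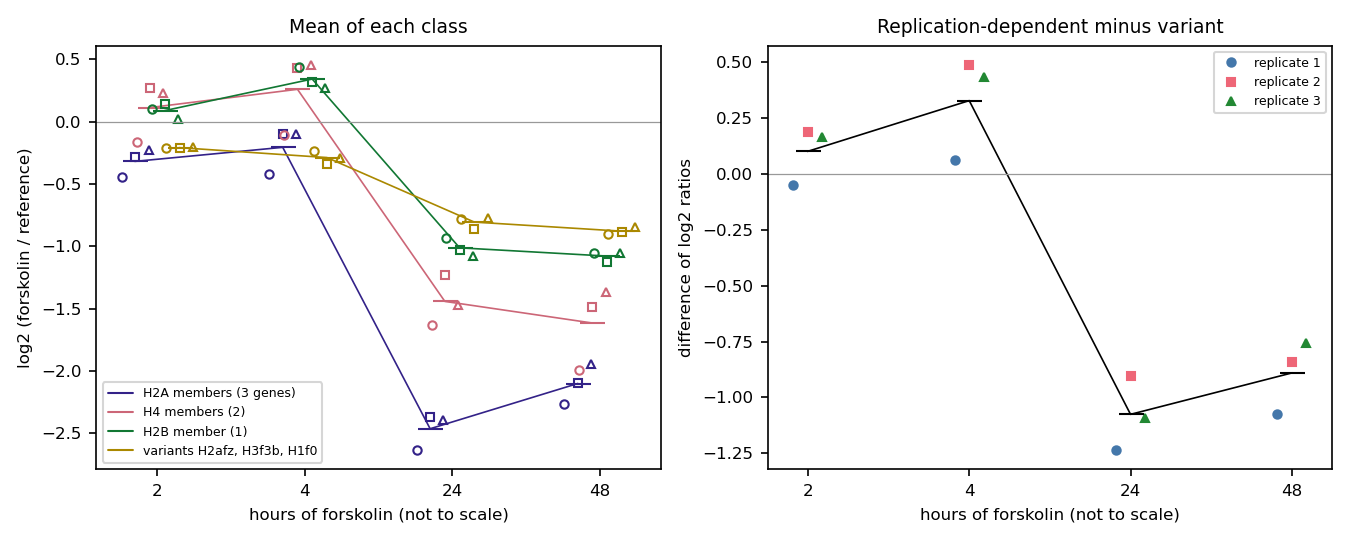
Left, mean log2 ratio of each class (vertical axis) at 4 times (horizontal axis, not to scale), with open symbols for the 3 arrays; right, the mean of the 6 Hist1 genes minus the mean of H2afz, H3f3b and H1f0 on each array, marked by replicate. On the right all 6 arrays of 24 and 48 h lie between -1.23 and -0.76.

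Within the Hist1 class the H2A genes lay below the H4 genes on all 12 arrays, with differences of -0.43 ± 0.14, -0.47 ± 0.14, -1.02 ± 0.11 and -0.49 ± 0.19 at the 4 times in turn. The gap was widest at 24 h, where its 3 arrays did not overlap those of any other time. Across the 12 arrays Hist1h2ao correlated at 0.98 with Hist1h4m, 0.96 with Hist1h2bg, 0.96 with H2afz, 0.91 with H3f3b and 0.50 with H1f0 (Pearson r, a description: the points share the reference, the slides and 4 time points).

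The arrays of replicate 1, which the files' headers place on 1 slide, held the lowest Hist1 mean at every time, with deviations of -0.21 to -0.13 from the mean of the 3 arrays. The other 2 slides gave differences between Hist1 genes and variants of 0.18, 0.46, -0.996 and -0.80 at the 4 times in turn when slide 1 was left out. Array position on a slide and time cannot be told apart, since each time held 1 position.

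Brightness moved with the size of the change among replication-dependent probes. Over 24 kept probes of the Hist1 members and of other genes with replication-dependent names, the 24 h ratio correlated at -0.86 with the mean log2 intensity (Pearson r over probes, which share sequence and arrays). The median was -2.24 in 8 probes with an intensity of 12 or more, -1.46 in 3 between 10 and 12, and -0.45 in 13 under 10. The dim Hist1h4b probe at chr17:50120631-50120690, with an intensity of 6.95, stood at -0.33 ± 0.11 at 24 h where the bright one stood at -1.42 ± 0.21. None of the 15 member probes was saturated on any array, and in both channels all were well above background on all 12. Of the 1362 tested genes as bright as 12 or more, 2.13% had a 24 h ratio at or below -1 and the median was 0.01. That share was 1.93% of genes between 10 and 12 and 0.39% of genes under 10, so ratios this low were rarer among dim genes of any kind. The order H2A, H4, H2B among the members is also their order in brightness, and the part that brightness plays in it was not tested.

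**Figure D4:**
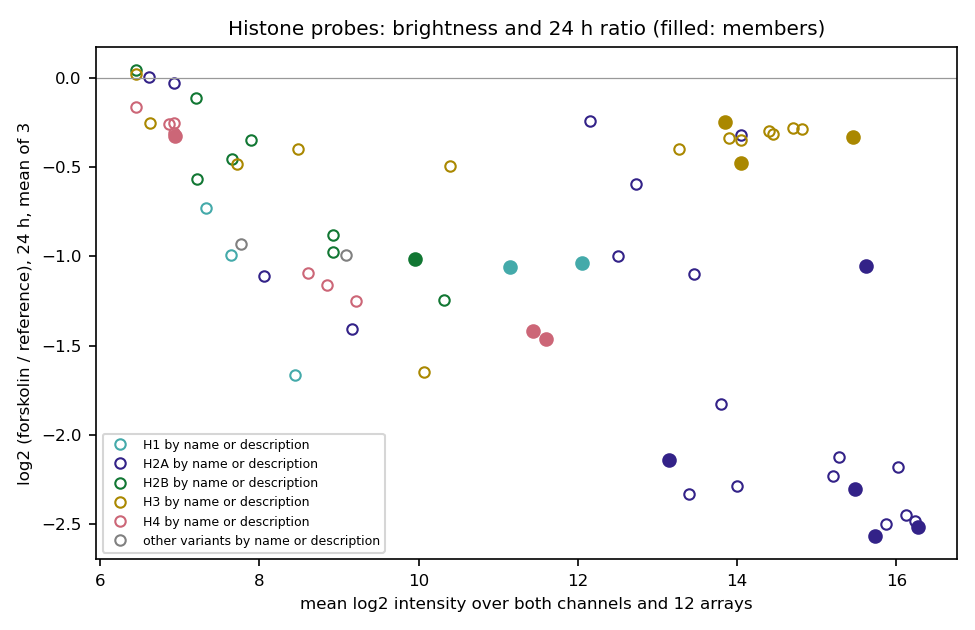
Log2 ratio at 24 h (vertical axis, mean of 3 arrays) against mean log2 intensity over both channels and 12 arrays (horizontal axis) for the 65 kept histone probes, coloured by the kind of histone in the name or description and filled for members; the probe named H2afx is left out. The 8 probes over the shared H2A stretch lie between -2.57 and -2.18, while the 9 bright H3 probes other than Hist2h3c2 lie between -0.47 and -0.25.

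Other probes over histone genes bear on the same comparison. All 8 probes over the shared H2A stretch stood between -2.57 and -2.18 at 24 h and between -2.20 and -1.91 at 48 h, each higher at 48 h than at 24 h by 0.28 to 0.42. Among 10 probes named or described as H4, the 5 with an intensity of 8 or more stood between -1.46 and -1.09 at 24 h, and all 5 were lower at 48 h than at 24 h. Leaving out Hist2h3c2, whose probes disagree and are given further on, 9 bright H3 probes, the 3 named H3f3b among them, stood between 0.0019 and 0.31 at 4 h and between -0.47 and -0.25 at 24 h. Of those 9, the main H3f3b probe alone was lower at 48 h than at 24 h, as was the bright Hist2h3c2 probe outside them (-0.31 and -0.57). A transcript described as the H2A variant H2A.V (RGD1560813), a close relative of H2A.Z, had 2 probes at -1.10 ± 0.07 and -0.999 ± 0.06 at 24 h and -0.84 ± 0.09 and -0.83 ± 0.05 at 48 h, so that it rose again by 0.26 and 0.17 where H2afz fell further.

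Of 15 other genes with replication-dependent names on the array, 13 were tested. At 24 h 10 were called lower and 0 higher, against 29.5% of all genes called lower, with a median of -0.45 against -0.02 over all genes. At 4 h 6 were called higher and 0 lower, against 19.6% called higher. With median centring only Hist3h2ba of these 6 lay above 0 at 4 h, at 0.10. Relative to the median of all genes under that centring, Hist3h2ba (0.69), Hist1h2bh (0.08) and Hist1h2bm (0.08) lay above 0 and H2bc18 (-0.08), Hist1h2bo (-0.19) and Hist2h3c2 (-0.38) below it. The 5 with the largest change at 24 h were 2 H2A genes, 2 H2B genes and a linker histone. H2ac25 fell to -2.29 ± 0.08 (adjusted p = 5.1e-13, limma) and H2ac18 to -2.18 ± 0.15 (adjusted p = 9.5e-11). The H2ac18 probe is 1 of the 8 over the shared H2A stretch, with 55 of 60 bases equal to the Hist1h2ao probe. The H2bc18 probe has 50 of 56 bases equal to the Hist1h2bg probe. The calls of H2ac18 and H2bc18, and their part in the counts, are therefore not separate from the members. H2ac25 gave -2.38, -2.22 and -2.28 at 24 h and -1.95, -1.96 and -2.00 at 48 h, and its difference of 0.32 between these times was called (adjusted p = 0.0041), whereas the 0.28 of H2ac18 was called only with the slide as a block (adjusted p = 0.13 without the block and 0.002 with it, limma). Within the 3 slides the step of H2ac18 was 0.25, 0.24 and 0.34.

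The H2B genes Hist1h2bo and H2bc18 rose and then fell: Hist1h2bo stood at 0.22 ± 0.02 at 4 h and -0.97 ± 0.06 at 24 h, and H2bc18 at 0.32 ± 0.10 and -0.88 ± 0.13, each called both ways and each below 0 at 4 h with median centring. Their 24 h minus 4 h steps were -1.20 (adjusted p = 2.6e-09) and -1.20 (adjusted p = 3.5e-08). The linker histone gene H1f1 fell to -0.99 ± 0.05 at 24 h. Hist2h3c2, which encodes an H3 and was named after its values were seen, had probes that overlap by 29 equal bases and still differed: the brighter stood at 0.41 ± 0.04 at 4 h and -0.31 ± 0.04 at 24 h, the other at 0.05 ± 0.27 and -1.65 ± 0.24.

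Of the other variant genes on the list, 3 of 5 were tested and all 3 fell at 24 h. Cenpa, which encodes the H3 variant of centromeres, had means of 0.03 ± 0.05, -0.29 ± 0.01, -0.99 ± 0.06 and -1.36 ± 0.05 at the 4 times in turn (adjusted p at 24 h = 1.3e-10). H1f10, a linker variant, stood at -0.93 ± 0.13 and Macroh2a1, which encodes a variant with a macro domain enriched on silent chromatin, at -0.59 ± 0.01 at 24 h.

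The list of genes for the transcription and 3′ processing of histone mRNA had 18 tested members, of which 11 were called lower and 3 higher at 24 h, against 29.5% and 24.4% of all genes, with a median of -0.33. The cyclin E gene Ccne1, whose kinase partner Cdk2 activates histone transcription at the start of S phase, was called lower at 2 h already and stood at -0.84 ± 0.02 at 4 h and -1.21 ± 0.0018 at 24 h. Pou2f1, which encodes the octamer-binding factor Oct-1, stood at -0.73 ± 0.08 at 4 h and -1.03 ± 0.09 at 24 h, and Cdk2 at -0.10 ± 0.17 and -0.82 ± 0.19. The 4 h value of Cdk2 was called only with the slide as a block (adjusted p = 0.3 without and 0.033 with it). Npat, which encodes the coactivator that joins cyclin E activity to histone promoters, stood at -0.29 at 4 h (adjusted p = 0.00071) and -0.64 at 24 h; it was named after its values were seen. Sympk, which encodes a scaffold of the cleavage complex, stood at 0.77 ± 0.05 and Cpsf3, the endonuclease of that complex, at 0.33 ± 0.07 at 24 h. With median centring both lay below 0, and relative to the median of all genes Sympk stood at 0.23 and Cpsf3 at -0.02.

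Among 24 tested histone chaperones and deposition factors, 13 were called lower and 3 higher at 24 h, against the same shares of all genes (29.5% and 24.4%), with a median of -0.18. Chaf1b, which encodes a subunit of CAF-1, the chaperone that places H3 and H4 behind the replication fork, fell to -1.62 ± 0.05 (adjusted p = 5e-12), from -0.22 ± 0.06 at 4 h. Nap1l4, a chaperone of H2A and H2B, stood at -0.72 ± 0.10, the FACT subunit gene Supt16h at -0.53 ± 0.07, and Srcap, the ATPase that exchanges H2A.Z into nucleosomes, at -0.51 ± 0.08. The importin gene Ipo4 (0.38 ± 0.09) and the histone-binding gene Rbbp7 (0.33 ± 0.12) were called higher. With median centring both lay below 0, and relative to the median of all genes Ipo4 stood at 0.22 and Rbbp7 at -0.17.

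Of 46 tested genes of DNA replication and S phase, 40 were called lower and 0 higher at 24 h. The shares of all genes were 29.5% and 24.4%. At 48 h 44 were called lower and 0 higher, against 30.5% and 27.1% of all genes. The medians at the 2 times were -0.57 and -0.93. The ribonucleotide reductase gene Rrm2 stood at -1.44 ± 0.06, the dUTPase gene Dut at -1.35 ± 0.04, the cyclin A gene Ccna2 at -1.32 ± 0.05 and the replicative helicase gene Mcm3 at -1.19 ± 0.08 at 24 h. From 24 to 48 h 27 of the 46 were called lower and 0 higher, against 6.90% and 8.14% of all genes over that step. The 3 H2A members had means 0.32 to 0.42 higher at 48 h than at 24 h over the same step; whether the 2 sets differ was not tested, since the members were chosen with these values known.

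**Figure D5:**
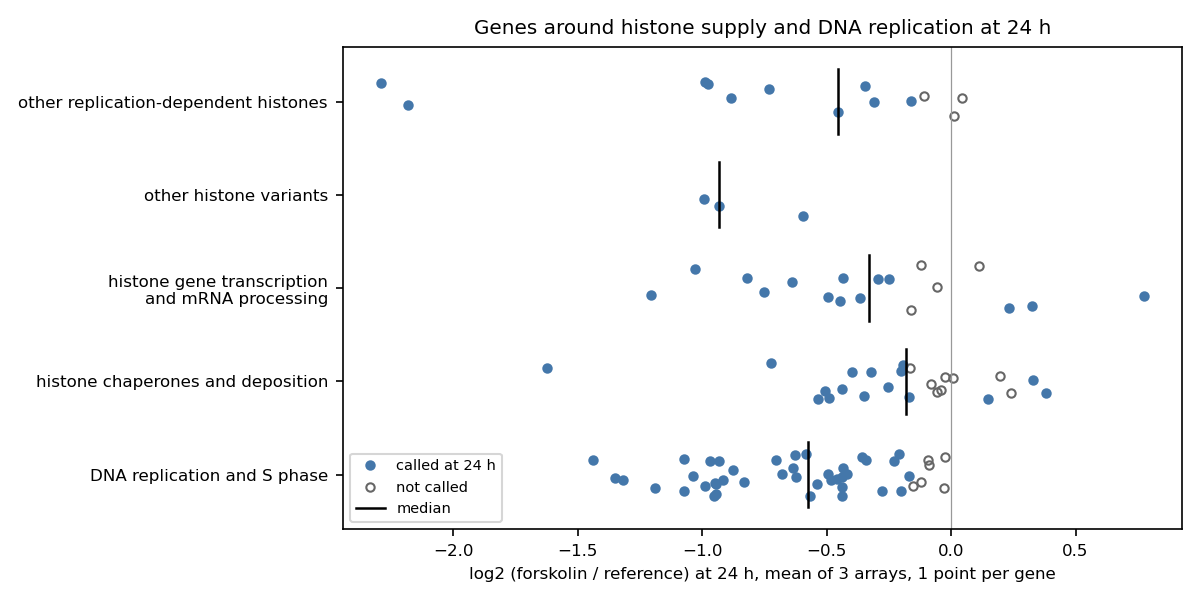
Log2 ratio at 24 h (horizontal axis, mean of 3 arrays) of every tested gene of 5 lists, 1 point per gene, filled where called at an adjusted p under 0.05 in limma; the bar is the median of the list. Of the 13 other replication-dependent genes 10 are called lower, and of the 46 replication genes 40, against 29.5% of all genes. The 13 include H2ac18 and H2bc18, whose probes overlap in sequence with member probes.

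Outside the histones, the genes whose 12 ratios correlated best with the mean of the Hist1 members, among 9256 named genes, included Dynll2 (0.996), Kiaa0930 (0.991), Ubl4a (0.991) and Rtcb (0.989), which are 4 of the best 5. Dynll2, a dynein light chain gene, stood at 0.19 ± 0.04 at 4 h, -0.95 ± 0.04 at 24 h and -0.91 ± 0.05 at 48 h, and with median centring its 4 h value lay below 0. For H2afz the 3 best were Prim1 (0.997), a DNA primase gene, Exo1 (0.996), an exonuclease gene, and Stag1 (0.996), a cohesin gene. Prim1 stood at -0.97 ± 0.05 at 24 h and -1.21 ± 0.04 at 48 h. For H3f3b they were Mcmbp (0.991), Rrm1 (0.989) and Naca (0.987), for H1f0 Zmym1 (0.971), Tsen15 (0.968) and Tlnrd1 (0.953), and for the probe named H2afx Cdhr5 (0.920), Cfd (0.910) and Rplp1 (0.910). These are correlations over arrays that share 1 reference and 4 times, given as a description.

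Promoter letters from RefSeq (GRCr8), 250 bases before the start, were read for 5 Hist1 members and 3 variants. The H4 windows share a run of 28 letters, in capitals below, within 75 bases before the start, and of 33469 windows in the table only these 2 hold it on either strand. Neither a bearing of this run on the H4 ratios nor signal shared between H4 copies was tested. The last 100 bases before each start are shown.
Hist1h4m, chr17:47393664-47393763, plus strand: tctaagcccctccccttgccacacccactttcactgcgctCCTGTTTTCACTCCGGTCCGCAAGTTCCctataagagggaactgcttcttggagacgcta
Hist1h4b, chr17:47176146-47176245, plus strand: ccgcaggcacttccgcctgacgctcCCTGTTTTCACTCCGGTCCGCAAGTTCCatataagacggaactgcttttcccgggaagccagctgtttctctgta
The motif CCAAT was found on either strand in 3 of 5 Hist1 windows and 2 of 3 variant windows, against 34% of all windows, and the octamer ATTTGCAT, which Oct-1 binds, in 2 of 5 and 1 of 3, against 1.56%. The full cyclic AMP response element TGACGTCA was in 0 of these 8 windows and in 1.59% of all, and its half-site TGACG, which lies inside it, in 2 of 5 Hist1 and 1 of 3 variant windows, against 18.2%. A member of each class with both CCAAT and the octamer is shown to set them side by side, motifs in capitals, ATTGG and ATGCAAAT being the same motifs on the other strand.
Hist1h2af, chr17:41807654-41807903, minus strand: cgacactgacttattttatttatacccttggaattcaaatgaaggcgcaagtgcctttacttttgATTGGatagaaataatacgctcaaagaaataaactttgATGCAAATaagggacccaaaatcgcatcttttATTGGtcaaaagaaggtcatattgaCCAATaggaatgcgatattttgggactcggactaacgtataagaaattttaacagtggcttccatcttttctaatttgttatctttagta
H3f3b, chr10:101757637-101757886, minus strand: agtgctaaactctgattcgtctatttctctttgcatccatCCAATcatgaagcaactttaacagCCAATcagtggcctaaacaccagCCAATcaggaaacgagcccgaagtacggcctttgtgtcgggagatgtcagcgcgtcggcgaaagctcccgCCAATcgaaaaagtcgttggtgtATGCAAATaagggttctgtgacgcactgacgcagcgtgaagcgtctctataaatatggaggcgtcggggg
Both windows hold these motifs, and the 24 h ratios of the genes were -2.57 (Hist1h2af) and -0.33 (H3f3b). The window listed for Hist1h2ao was left out: the 28 bases from its first ATG equal those of a probe described as histone H4, not H2A.

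Markers of other cells were checked beside these results. All 11 neuronal markers were tested; 5 were called higher and 4 lower at 24 h, against 24.4% and 29.5% of all genes, and 9 higher and 0 lower at 48 h, against 27.1% and 30.5%. The catecholamine enzyme gene Th stood at 1.5 ± 0.06, the intermediate filament gene Prph at 0.56 ± 0.08 and the synaptic gene Snap25 at 0.55 ± 0.23 at 24 h, while the transcription factor gene Isl1 stood at -0.52 ± 0.07 and the neurofilament gene Nefm at -0.43 ± 0.02. The split depended on the scaling: with median centring 10 were called lower and 1 higher at 24 h, and at 48 h 2 of the 11, Th (0.43) and Snap25 (0.48), lay above 0. Of 8 glial markers 3 were tested, at -0.25 to -0.12 at 24 h, and of 8 leukocyte and endothelial markers 5 were tested, at -0.31 to 0.18. In bulk RNA, fewer cells in S phase and less histone mRNA per cell cannot be told apart. Per array, 19889 to 21973 of the 43379 spots that are no controls passed the scanner's background test in green and 19504 to 23285 in red, and the 3 arrays of a time limit the precision.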

How the data were processed

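RNA of forskolin-treated F11 cells was hybridised against the common reference on 12 rat 2-colour arrays. Intensity values per spot and channel were deposited as Agilent Feature Extraction wrote them (version 9.5.1.1 in the file headers). The deposited table of log2 ratios was used as an alternative; the submitters' processing notes name limma for the authors' work, with no version or settings. Set against the scanner values, it runs red over green (r of -0.990 to -0.944 with green over red). From the scanner values, mean and background signals were corrected with normexp (offset 50) and loess within arrays in limma 3.58.1 (R 4.3.3). Control spots had weight 0 and outlier-flagged spots were left out. A probe was kept if well above background in 1 channel on all 3 arrays of a time (20439 of 41012). The brightest probe stood for a gene. One linear model with a mean per time, eBayes and Benjamini-Hochberg adjustment was fitted over 17648 genes, with a call at an adjusted p under 0.05. On simulated data for these genes at 24 h, 98% of 100 genes changed by 0.5 and 100% of 100 changed by 1 (log2) were recovered. For 24 h minus 4 h 93% and 99% were recovered, and in each comparison 13 unchanged genes were called. The simulated noise was independent between arrays, with no slide, dye or scaling effect, so the recovery does not cover these.

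The members and lists were chosen with earlier results of these data known. The rule for genes named in the text was: all members with every probe; the 5 other replication-dependent histones with the largest absolute change at 24 h; of each other list, up to 4 called genes with the largest absolute change at 24 h and up to 2 called the other way; and the 5 genes best correlated with the Hist1 mean and 3 with each variant. One of those genes is not reported here. Genes outside the rule are marked where they appear. Alternatives were other background corrections, normalizations and filters, the deposited values, the replicate number as a block and each array left out.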

Additional observations from a re-analysis of the deposited data

Results flagged for a closer look

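Several probes lay on one side of the reference on all 3 arrays of a time and on the other side on all 3 arrays of the next time. For the histone members this turn was not tested, since their values chose them. Hist1h2bg turned from above to below the reference between 4 and 24 h, with a difference of -1.35 on the log2 scale. The main H3f3b probe (-0.51), the H3f3b probe at chr13:96728508-96728546 (-0.56) and the H1f0 probe at chr7:117035998-117036057 (-1.14) turned in the same way over that step.

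For other genes the step was tested in limma over all genes. Hist1h2bo differed by 0.29 between 2 and 4 h (adjusted p = 0.0041) and by -1.20 between 4 and 24 h (adjusted p = 2.6e-09), and H2bc18 by -1.20 over the later step (adjusted p = 3.5e-08). The H2bc18 probe shares most of its letters with the Hist1h2bg probe. Among the genes correlated with the Hist1 mean, the differences between 4 and 24 h were -1.14 for Dynll2 (adjusted p = 4.8e-09), -0.50 for Kiaa0930 (adjusted p = 5.6e-06) and -0.50 for Ubl4a (adjusted p = 1.2e-05). Among those correlated with H3f3b they were -0.73 for Mcmbp (adjusted p = 2.4e-07), -1.06 for Rrm1 (adjusted p = 1.3e-07) and -0.25 for Naca (adjusted p = 0.0013). Cdhr5, correlated with the probe named H2afx, differed by 0.49 between 24 and 48 h (adjusted p = 0.0021). These genes were picked by their correlation over the same arrays. Signs at 4 h depend on the scaling, as described below.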

How the results depend on the processing

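The difference between Hist1 genes and variants stayed below 0 at 24 and 48 h under every alternative run. With the deposited log2 values, which lacked Hist1h2af and Hist1h2ao, it was 0.30, 0.58, -0.70 and -0.67 at the 4 times. The Hist1 mean of that run thus covered fewer genes, and its values do not compare directly with the main difference. With the other H1f0 probe the difference was -0.087 at 2 h and -0.0077 at 4 h. With the probe named H2afx among the variants it was -1.29 at 24 h and -1.14 at 48 h, and with the H2ax probe instead -1.27 and -1.10; these choices of probe were made after seeing the data. Median centring put the median of all genes at -0.58 at 2 h and -0.59 at 4 h. Of the member values called in the main fit, it turned Hist1h2bg at 4 h (-0.76), H3f3b at 4 h (-1.25) and the probe named H2afx at 48 h (-0.74) below 0. The early means of the H4 members, not called, turned below 0 as well. With it 13753 genes were called at 2 h, 13897 at 4 h, 354 between 2 and 4 h, 3348 between 4 and 24 h and 274 between 24 and 48 h. At 24 h it gave 17 lower and 0 higher for histone transcription and processing, 23 and 0 for chaperones, 10 and 1 for neuronal markers, and 0 higher for leukocyte and endothelial markers. The last list had 2 called higher with no background correction and 2 with the processed signals, and 0 lower and 0 higher where both channels had to pass on 12 arrays. The cause was not tested.

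Leaving out 1 array gave 2823 to 5535 genes called at 2 h against 5053 in all, with 3187 without replicate 2 of 2 h and 2823 without replicate 3. Chaperones called higher ranged from 1 to 3 and leukocyte and endothelial markers called higher from 0 to 1. With the replicate number as a block, 6217, 9691, 10326 and 10925 genes were called at the 4 times. Samples of one number correlated at 0.05 to 0.48 (median 0.23, 18 pairs) in their deviations from the time means. Those of different numbers correlated at -0.40 to 0.31 (median -0.21, 36 pairs). Samples of one number were thus more alike, and the main model had no term for this. Of the member values recomputed, 763 moved by less than the spread between replicates, 66 moved by more and 3 reversed. Hist1h4b, at -1.42 at 24 h and -1.60 at 48 h in the main fit, ranged widely over the alternatives other than leaving out an array. It gave -2.45 to -0.68 at 24 h and -2.67 to -0.80 at 48 h. Signal over background limits the dim probes, H2ax and the second Hist1h4b probe among them.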

Other observations

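One bright probe described as an H2A stood apart from the rest. LOC364947, with a mean log2 intensity of 14.0, stood at -0.32 at 24 h, where the other bright H2A probes outside the variants stood between -2.57 and -1.83. It was picked after its value was seen, and the difference was not tested.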
